A study of Mus musculus with 16 samples.

Results

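The genes described here handle iron in and between cells: *Hmox1* for heme breakdown, *Fth1* and *Ftl1* for storage, *Trf*, *Tfrc*, *Steap3* and *Slc11a2* for uptake, *Slc11a1* for transport out of phagosomes, and *Slc40a1* and *Cp* for export. They were chosen by symbol, as 10 of the 24411 genes listed, and all 10 were among the 16091 genes tested, those whose mean level passed 1 TPM (a unit that scales reads to gene length and library depth) in 1 group or more. RNA was sequenced from the spinal cord of 16 female C57BL/6J mice. In 14 of them the cord was compressed from both sides to 0.25 mm under vertebrae T8-9 at 12 wk of age, and from 2 wk later they were injected daily for 4 wk. The 7 SCI + Atorvastatin mice received atorvastatin, a statin that inhibits cholesterol synthesis, at 10 mg/kg in a mixture of DMSO, PEG, Tween and saline, and the 7 SCI + Vehicle mice received this solution without the drug. The labels give 12 wk as the age to which mice were raised, which puts the injured mice at 18 wk at isolation. The 2 Uninjured Control mice had neither surgery nor injections and were younger at isolation per the study's methods, so injury, age and handling cannot be told apart in any comparison with them. A 5 mm piece of cord was taken 6 wk after injury, or from the matching site of the controls. In such bulk tissue, fewer cells of a type and less RNA per cell cannot be told apart.

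Red cells that leak into injured cord are engulfed, and heme oxygenase 1, the product of *Hmox1*, opens their heme and frees the iron. Iron is stored in ferritin, a shell of heavy chains (*Fth1*), which oxidize iron, and light chains (*Ftl1*), which aid its deposition. It leaves the cell through ferroportin (*Slc40a1*) with the help of the ferroxidase ceruloplasmin (*Cp*), is carried by transferrin (*Trf*), and enters other cells through the transferrin receptor (*Tfrc*). In the central nervous system, oligodendrocytes and microglia are rich in ferritin.

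Several of these mRNAs carry an iron-responsive element, a hairpin bound by iron regulatory proteins when iron is low. Binding in the 5′ UTR blocks translation, as in ferritin, and binding in the 3′ UTR stabilizes the mRNA, as in *Tfrc*. The elements are shown because they tie the translation or stability of these members to iron, whereas the measurements here are of mRNA only. They were located in the GENCODE vM21 transcripts on GRCm38 (mm10) on the transcript strand. The pattern was a C, 5 stem bases, a loop of CAGTG and then A, C or T, and 5 bases able to pair with the stem (G-U pairs allowed). Capitals mark the loop.
Fth1, 5′ UTR, chr19:9982733-9982759, plus strand: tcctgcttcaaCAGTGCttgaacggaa
Ftl1, 5′ UTR, chr7:45459780-45459806, minus strand: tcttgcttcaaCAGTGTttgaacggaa
Slc40a1, 5′ UTR, chr1:45925466-45925492, minus strand: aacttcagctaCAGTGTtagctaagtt
Tfrc, 3′ UTR, chr16:32631220-32631246, plus strand: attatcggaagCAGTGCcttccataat
Tfrc, 3′ UTR, chr16:32631599-32631625, plus strand: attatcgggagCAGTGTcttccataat
Tfrc, 3′ UTR, chr16:32631664-32631690, plus strand: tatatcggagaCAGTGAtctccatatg
Tfrc, 3′ UTR, chr16:32631711-32631737, plus strand: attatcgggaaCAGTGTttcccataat
Of 21877 protein-coding genes, 23 (0.105%) held such a match in a 5′ UTR and 100 (0.457%) in a 3′ UTR. The other 6 members held no match to these letters. Stems with an unpaired or extra base among the 5 pairs were not searched for, so this does not show that an element is absent.

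Libraries held 14823292 to 25579826 counts on genes. The controls stood apart from the injured mice: counts were found in 12732 and 12356 genes in their libraries, against 16399 to 19338 in the injured mice. They also held liver transcripts, with 15 markers such as *Alb* summing to 4987 and 842 CPM (counts scaled to library size) against at most 8.73 CPM in any injured mouse. Spinal cord markers were abundant in every library, with 10 oligodendrocyte markers summing to 13590 CPM or more and 8 astrocyte markers to 8851 CPM or more. The 13 microglia or macrophage markers summed to 225 and 322 CPM in the controls, 1991 to 2587 CPM in SCI + Vehicle and 2155 to 3219 CPM in SCI + Atorvastatin mice. For the 10 members, each comparison with the controls is therefore given with either control left out where this changed a call or moved a value by more than 1.5 times.

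The 10 genes spanned a wide range of levels. *Fth1* was among the 5 genes with the highest TPM in every library, and its TPM was 0.814% to 1.25% of all transcripts in the injured mice. In SCI + Atorvastatin mice the order of the median levels was *Fth1*, *Ftl1*, *Trf*, *Cp*, *Hmox1*, *Tfrc*, *Slc11a1*, *Slc11a2*, *Slc40a1* and *Steap3*. The ranges of the 7 mice were apart from *Fth1* down to *Hmox1*, whereas *Hmox1*, *Tfrc* and *Slc11a1* overlapped. *Slc11a2* lay above *Slc40a1* in all 7, and *Slc40a1* and *Steap3* overlapped. In the controls *Trf* lay above *Ftl1* in both mice, while in all 14 injured mice *Ftl1* lay above *Trf*.

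**Figure D1:**
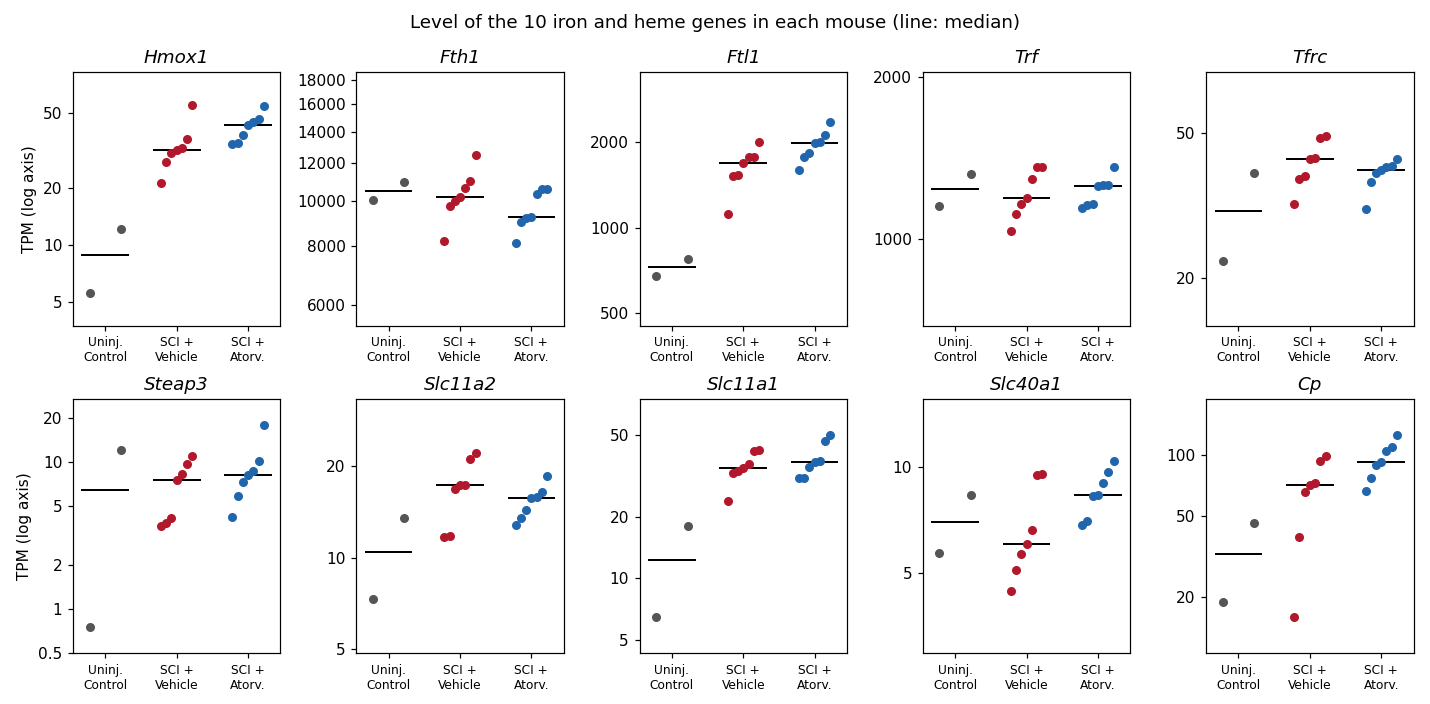
TPM of each gene (log axis, scaled per gene) in the 2 Uninjured Control, 7 SCI + Vehicle and 7 SCI + Atorvastatin mice, with 1 point per mouse, sorted by level within a group, and a line at the group median. *Ftl1*, *Hmox1* and *Slc11a1* lie above both controls in all 14 injured mice (by CPM, *Hmox1* does not). *Fth1* and *Trf* overlap in the 3 groups, but by CPM *Fth1* in SCI + Atorvastatin mice lies below both controls.

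Against the controls, the light chain of ferritin, *Ftl1*, and the phagosomal transporter *Slc11a1* were upregulated in both injured groups, and *Hmox1* and *Cp* were also called in SCI + Atorvastatin mice. With vehicle, 2 of the 10 members were called against the controls, both higher, where 29.8% of all genes tested were called and 19.9% were called higher. With atorvastatin, 4 of the 10 were called against them, all higher, where 38.9% of all genes were called and 24.9% were called higher. These shares of members are near those of all genes. Calls needed an adjusted p below 0.05 (Benjamini-Hochberg) in edgeR's quasi-likelihood test of the counts, together with a log2 fold change beyond 0.32 in either direction. At an unadjusted p below 0.05 the members counted 3 and 5, where 41.3% and 47.8% of all genes did. The p-values measure the spread between these mice, which the labels give as biological replicates. The median log2 fold change of the members was 0.33 for SCI + Vehicle and 0.25 for SCI + Atorvastatin mice, beside 0.17 and 0.21 for all genes. The comparisons share the same 2 controls, so a member called in both has not been found in independent samples.

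*Hmox1*, the inducible heme oxygenase, was listed at 12.2 and 5.63 TPM in the controls. In SCI + Vehicle mice it ranged from 21.4 to 55.15 TPM with a median of 31.8, and in SCI + Atorvastatin mice from 34.4 to 54.4 TPM with a median of 43.2. Every injured mouse thus lay above both controls by TPM, but not by CPM. TPM per CPM in Uninjured Control replicate 1 was 0.474 of the median of the injured mice, and by CPM the controls were at 15.2 and 2.90, with SCI + Vehicle replicates 5 (14.98 CPM) and 7 (13.4 CPM) between them. From the counts, the log2 fold change was 1.14 (SE 0.55, edgeR adjusted p = 0.143) in SCI + Vehicle and 1.44 (SE 0.51, edgeR adjusted p = 0.0458) in SCI + Atorvastatin mice. The controls differed from each other by more than this, with 302 and 64 counts. Without Uninjured Control replicate 1 the log2 fold changes were 2.77 and 3.08, both called, and without replicate 2 they were 0.38, not called, and 0.68, called. In the latter comparison the call was also lost on leaving out any of the 7 SCI + Atorvastatin mice (adjusted p = 0.0599 to 0.0771 in edgeR).

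The chains of ferritin differed in their change after injury. *Ftl1* was at 774 and 679 TPM in the controls, at 1116 to 1995 TPM (median 1690.2) in SCI + Vehicle mice and at 1598 to 2346 TPM (median 1983) in SCI + Atorvastatin mice. No injured mouse overlapped the controls. The log2 fold change was 1.11 (SE 0.19, edgeR adjusted p = 0.00172) in SCI + Vehicle and 1.38 (SE 0.21, edgeR adjusted p = 0.000627) in SCI + Atorvastatin mice, and the call held in 17 of 18 alternative settings in each. The exception was voom with quality weights per group, which called 0 members and 0.957% and 1.16% of all genes in these comparisons (adjusted p of *Ftl1* 0.507 and 0.273).

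*Fth1*, the heavy chain, was at 10051 and 10949.7 TPM in the controls, at 8207 to 12504 TPM (median 10171) in SCI + Vehicle and at 8136 to 10582 TPM (median 9226) in SCI + Atorvastatin mice. The 3 groups overlapped by TPM. By CPM all SCI + Atorvastatin mice (2310 to 3241) lay below both controls (3548 and 3462), while SCI + Vehicle replicate 4 (3536) lay between them. The log2 fold change of *Fth1* was -0.25 (SE 0.12, edgeR adjusted p = 0.130) in SCI + Vehicle and -0.33 (SE 0.12, edgeR adjusted p = 0.0546) in SCI + Atorvastatin mice, beside a median above 0 for all genes. It was called lower in SCI + Atorvastatin mice under 6 of 18 alternatives, among them DESeq2 with -0.36 (adjusted p = 0.00894), whereas limma on log2(TPM + 1) gave -0.14 (adjusted p = 0.389). Without Uninjured Control replicate 2 it was -0.36 and called (edgeR adjusted p = 0.0481), and without replicate 1 it was -0.31 and not called (adjusted p = 0.0793). GENCODE lists 14 further genes or pseudogenes named as copies of *Fth1* or *Ftl1*, and none of these symbols is in the tables, so reads shared with such copies make both levels uncertain. An exon of *Ftl1* also overlaps *Gm10252* on the opposite strand, and the strand setting of the counting is not given in the sources used here.

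**Figure D2:**
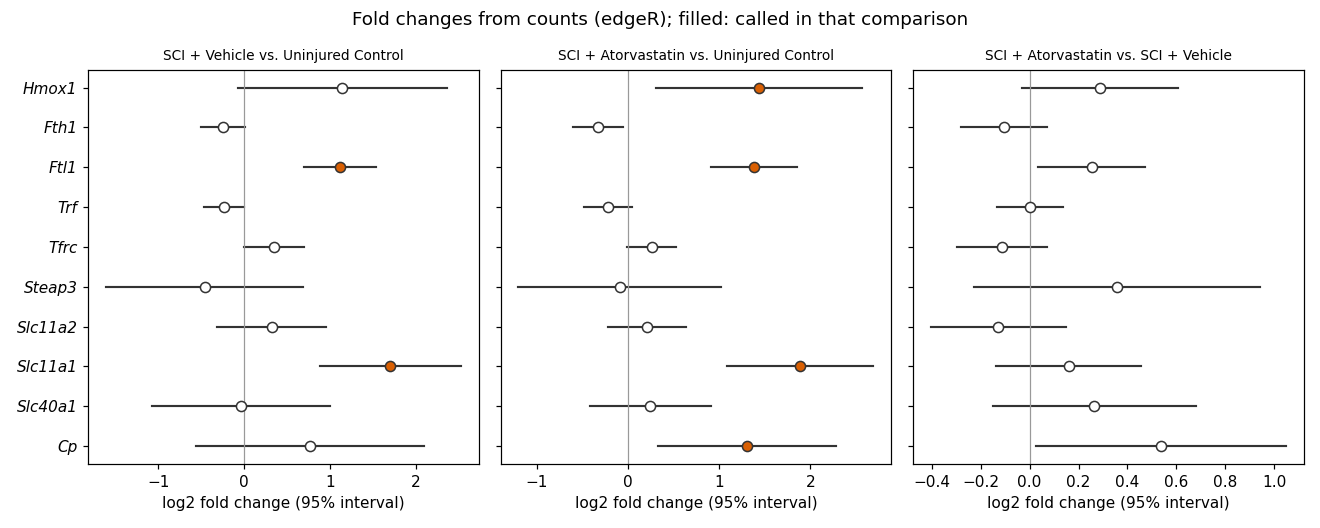
log2 fold change of each gene from counts (point) with its 95% interval (line) in the 3 comparisons, each panel with its own axis. Filled points mark calls: *Ftl1* and *Slc11a1* against the controls in both injured groups, *Hmox1* and *Cp* in SCI + Atorvastatin mice, and no gene between the treatments.

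Of the genes of iron uptake, none of the 4 was called in either comparison. *Trf*, which oligodendrocytes and liver make, was at 1321 and 1152 TPM in the controls, at 1035 to 1362 TPM (median 1190.2) in SCI + Vehicle and at 1142 to 1359 TPM (median 1255) in SCI + Atorvastatin mice. These levels overlapped. The log2 fold change was -0.24 (SE 0.10, edgeR adjusted p = 0.114) and -0.22 (SE 0.12, adjusted p = 0.179). Without Uninjured Control replicate 2 it was -0.41 and -0.39, called lower in both, and without replicate 1, the control with the larger sum of liver markers, it was -0.05 and -0.02. The part of liver RNA in these values was not tested.

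*Tfrc*, the receptor for iron-loaded transferrin, was at 22.3 and 38.8 TPM in the controls, at 31.98 to 49.0 TPM (median 42.5) in SCI + Vehicle and at 31.0 to 42.35 TPM (median 39.7) in SCI + Atorvastatin mice. By TPM the second control lay within both injured groups and the first below them. The log2 fold change was 0.35 (SE 0.16, edgeR adjusted p = 0.125) and 0.26 (SE 0.12, adjusted p = 0.122), and without Uninjured Control replicate 1 the latter was 0.17. *Slc11a2*, the transporter DMT1 that moves iron out of the endosome, was at 13.5 and 7.29 TPM in the controls, at 11.7 to 22.1 TPM (median 17.3) in SCI + Vehicle and at 12.8 to 18.55 TPM (median 15.7) in SCI + Atorvastatin mice. Its log2 fold changes of 0.32 (SE 0.29) and 0.21 (SE 0.19) were within their error. Without Uninjured Control replicate 1 they were 0.62, not called, and 0.51, called, and without replicate 2 they were 0.06 and -0.05.

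*Steap3*, the endosomal ferrireductase, could not be placed against the controls, which were at 12.1 and 0.75 TPM. Their counts of 269 and 150 differed less, since TPM per count in Uninjured Control replicate 2 was 0.119 of the median of the injured mice. The injured mice ranged from 3.64 to 10.9 TPM (median 7.55) with vehicle and from 4.19 to 17.8 TPM (median 8.18) with atorvastatin. All but the highest of them, SCI + Atorvastatin replicate 7, lay between the controls. The log2 fold change of -0.46 (SE 0.52) in SCI + Vehicle and -0.09 (SE 0.50) in SCI + Atorvastatin mice turned to 0.62 and 0.94 on the log2(TPM + 1) scale, with none called. From counts they were 0.11 and 0.49 without Uninjured Control replicate 1, and -0.88 and -0.51 without replicate 2.

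*Slc11a1*, also known as NRAMP1, moves metal out of the phagosomes of macrophages and had the largest fitted change of the members against the controls. It was at 6.48 and 18.1 TPM in the controls, at 24.0 to 42.4 TPM (median 34.8) in SCI + Vehicle and at 30.9 to 50.2 TPM (median 37.0) in SCI + Atorvastatin mice. All injured mice lay above both controls. The log2 fold change was 1.70 (SE 0.37, edgeR adjusted p = 0.00644) and 1.89 (SE 0.36, adjusted p = 0.00234), and ranged from 1.21 to 2.46 and from 1.39 to 2.64 over leaving out any mouse, called each time.

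Beside *Ftl1* and *Slc11a1*, called in both injured groups, and *Hmox1*, called only with atorvastatin, markers of microglia or macrophages rose against the controls. All 13 had a higher fitted level in both injured groups than in the controls, 10 being called in SCI + Vehicle and 11 in SCI + Atorvastatin mice, with a median log2 fold change of 3.17 and 3.31. Among them *C1qa* and *Ctss* had log2 fold changes of 3.17 and 3.41 in SCI + Vehicle mice. Both exceeded the 1.11 of *Ftl1* and the 1.70 of *Slc11a1*. The part of these cells in the change of any member was not tested.

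Of the export genes, *Slc40a1*, which encodes ferroportin, was at 5.67 and 8.29 TPM in the controls, at 4.43 to 9.53 TPM (median 6.02) in SCI + Vehicle and at 6.85 to 10.4 TPM (median 8.32) in SCI + Atorvastatin mice. The groups overlapped, and the log2 fold changes of -0.04 (SE 0.47) and 0.24 (SE 0.30) were within their error. They were -0.25 and 0.03 without Uninjured Control replicate 1, and 0.20 and 0.48 without replicate 2, with none called. *Cp*, which astrocytes and liver make, was at 46.1 and 18.8 TPM in the controls, at 15.8 to 98.7 TPM (median 71.1) in SCI + Vehicle and at 66.5 to 125 TPM (median 92.6) in SCI + Atorvastatin mice. All SCI + Atorvastatin mice lay above both controls, while SCI + Vehicle replicate 7 lay below them and replicate 4 between them. The log2 fold change of *Cp* was 0.76 (SE 0.60, edgeR adjusted p = 0.371) and 1.31 (SE 0.44, adjusted p = 0.0375). Without Uninjured Control replicate 1 it was 1.99 and 2.55, both called, and without replicate 2 it was 0.09 and 0.64, neither called. The latter call was also lost without any 1 of SCI + Atorvastatin replicates 2, 3, 4, 5 and 7. Uninjured Control replicate 1 held both the larger sum of liver markers and the higher *Cp* and *Hmox1*, and the part of liver RNA in either was not tested. The 6 fibroblast markers, of which 5 were called higher in SCI + Atorvastatin mice and 0 in SCI + Vehicle mice, summed to 292 and 305 CPM in the controls, 177 to 1168 CPM with vehicle and 728 to 1964 CPM with atorvastatin, and their part was not tested. The 8 astrocyte markers summed to 8851 and 9689 CPM in the controls, 12809 to 14403 CPM with vehicle and 13730 to 15116 CPM with atorvastatin. Of these markers 4 were called higher and 1 lower in SCI + Vehicle mice, and their part was not tested. *Cp* overlaps an exon of *Hps3* on the opposite strand. Likewise *Slc11a2* overlaps an exon of *Gm5475* on the opposite strand, and *Trf* an exon of *Gm20425* on the same strand.

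By the range of TPM, 3 members (*Hmox1*, *Ftl1* and *Slc11a1*) were higher in every SCI + Vehicle mouse than in either control, as were 26.3% of all genes tested, and these and *Cp* were so in SCI + Atorvastatin mice, as were 32.3% of all genes. By CPM there were also 3 with vehicle, with *Tfrc* in place of *Hmox1*, and the 4 named with atorvastatin. By TPM no member was lower in every injured mouse, compared with 6.67% and 8.91% of all genes. By CPM *Fth1* was lower in every SCI + Atorvastatin mouse than in either control. The share of all genes by CPM was not computed.

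Between the treatments, no member was called as different. The limit used between treatments was an unadjusted p below 0.001 with a log2 fold change beyond 0.32. At this limit edgeR called 0 of the 10 members and 0.106% of all genes, and DESeq2 0 members and 0.23% of all genes. At an adjusted p below 0.05, edgeR called 0 genes. By range, 0 members were apart, and 0.0373% of all genes were higher and 0.0249% lower in every SCI + Atorvastatin mouse. An unadjusted p below 0.05 was found for 2 of the 10, *Ftl1* and *Cp*, as for 7.03% of all genes. The median log2 fold change of the members was 0.21, with 7 of 10 above 0, beside -0.0014 for all genes. The intervals below bound what 7 mice against 7 could show.

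*Ftl1* was higher with atorvastatin by a log2 fold change of 0.25 (SE 0.10, 95% interval 0.04 to 0.47, edgeR adjusted p = 0.685). Of the 7 SCI + Atorvastatin mice, 6 lay above the SCI + Vehicle median by TPM, with overlapping ranges. By CPM, SCI + Atorvastatin replicates 1 and 6 (341 and 396) lay below the SCI + Vehicle median of 406. *Cp* differed by 0.54 (SE 0.25, 95% interval 0.03 to 1.05, edgeR adjusted p = 0.701), with 6 of 7 mice above its SCI + Vehicle median by TPM. SCI + Vehicle replicate 7 was the lowest of its group for 6 members, *Ftl1* and *Cp* among them. Without it the difference in edgeR was 0.21 for *Ftl1*, no longer at an unadjusted p below 0.05, and 0.37 for *Cp*, still below it. That mouse also had the lowest sums in its group of the fibroblast markers (177 CPM) and of the microglia or macrophage markers (1991 CPM), and the highest of the oligodendrocyte markers (19492 CPM). All 6 fibroblast markers had an unadjusted p below 0.05, higher with atorvastatin, and a median log2 fold change of 0.94, while 1 of 13 microglia or macrophage markers did, with a median of 0.14. The part of either in the difference of *Ftl1* or *Cp* was not tested. SCI + Atorvastatin replicate 2, with the highest *Cp* of all mice (125 TPM), held skeletal muscle markers summing to 2948 CPM. Their sum was 578 CPM in SCI + Vehicle replicate 3 and 3.45 to 159 CPM in the other injured mice. The part of muscle RNA in these differences was not tested.

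The other members differed less, or with a wider error. By TPM, *Hmox1* was above the SCI + Vehicle median in all 7 SCI + Atorvastatin mice, with a log2 fold change of 0.29 (95% interval -0.03 to 0.61, edgeR adjusted p = 0.739). *Slc40a1* was above it in all 7 as well, with 0.26 (95% interval -0.15 to 0.68, adjusted p = 0.806). *Tfrc* was below it in all 7, with -0.11 (95% interval -0.30 to 0.07, adjusted p = 0.816). By CPM this did not hold for *Hmox1*, with SCI + Atorvastatin replicate 7 at 19.3 and the SCI + Vehicle median at 20.6. Nor did it for *Tfrc*, with SCI + Atorvastatin replicates 2, 5 and 7 (86.2, 90.5 and 84.8 CPM) above the SCI + Vehicle median of 83.9. For these 3 genes the ranges overlapped. SCI + Vehicle replicate 2 had the highest *Hmox1* of all mice by TPM, though not by CPM. The share of all genes with all 7 mice on the same side of the SCI + Vehicle median was not computed. The counts of mice given for these genes, and for *Ftl1* and *Cp* above, thus have no background to be read against. The intervals of *Fth1* (-0.28 to 0.07) and *Trf* (-0.13 to 0.14) leave room for small differences, that of *Slc11a1* for -0.14 to 0.46, and those of *Slc11a2* (-0.40 to 0.15) and *Steap3* (-0.23 to 0.94) for larger ones.

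The spread among mice was larger with vehicle for most members. The coefficient of variation of TPM was larger in SCI + Vehicle than in SCI + Atorvastatin mice for 8 of the 10, *Slc11a1* and *Steap3* being the exceptions, and for 67.5% of the 14986 genes with a mean above 1 TPM in both groups. For *Cp* it was 44.7% with vehicle and 21.1% with atorvastatin, for *Hmox1* 31.4% and 16.97%, and for *Fth1* 12.7% and 9.78%. Without SCI + Vehicle replicate 2 that of *Hmox1* with vehicle was 17.3%, and without replicate 7 that of *Cp* was 28.96%. The count of members with the larger spread with vehicle was 7 to 9 over leaving out any injured mouse. No test of this spread was made.

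Ratios within a library do not depend on the scaling between libraries. The ratio of *Fth1* to *Ftl1* TPM was 12.99 and 16.1 in the controls, 4.11 to 9.54 (median 5.91) in SCI + Vehicle and 4.37 to 6.47 (median 4.55) in SCI + Atorvastatin mice. All 14 injured mice lay below both controls, with p = 0.0556 in each group in a two-sided exact permutation test of the mean log2 ratio, the smallest that 7 mice against 2 allow. Between the treatments the mean log2 ratio was lower with atorvastatin by a difference of -0.37 (exact permutation p = 0.0501, two-sided, adjusted over 2 ratios 0.10). SCI + Vehicle replicates 7 and 4 had the highest ratios of the injured mice, at 9.54 and 8.22, and SCI + Vehicle replicate 1 the lowest.

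*Tfrc* and ferritin mRNAs carry the iron-responsive elements printed above at opposite ends. The ratio of *Tfrc* to *Fth1*, per 1000 TPM of *Fth1*, was 2.21 and 3.55 in the controls, 3.05 to 5.04 (median 3.90) in SCI + Vehicle and 2.93 to 4.52 (median 4.31) in SCI + Atorvastatin mice. By TPM the groups overlapped, and the mean log2 ratio differed between treatments by 0.0034 (exact permutation p = 0.978, two-sided). Against the controls the exact permutation p by TPM was 0.111 for each injured group. The ratio of counts was not compared with the controls, so the overlap is stated for TPM only.

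**Figure D3:**
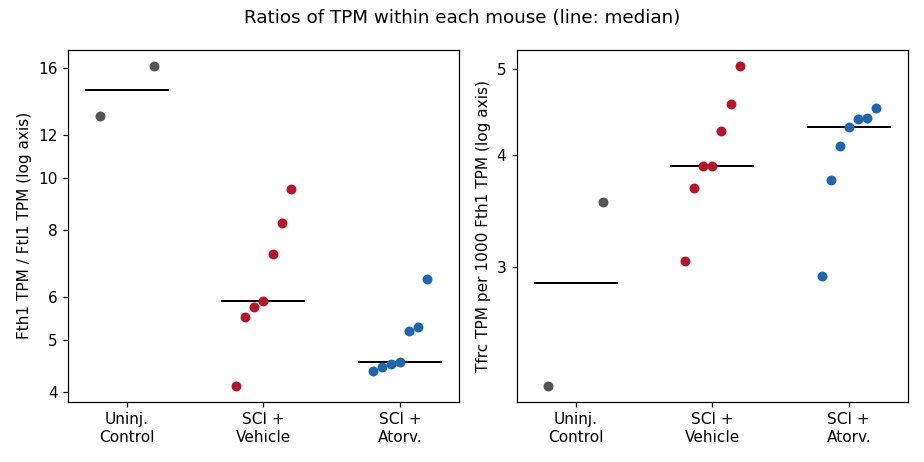
Ratio of *Fth1* to *Ftl1* TPM (left) and *Tfrc* TPM per 1000 TPM of *Fth1* (right), both on a log axis, with 1 point per mouse, sorted within a group, and a line at the group median. All 14 injured mice are below both controls on the left, while on the right the groups overlap.

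Among the 14 injured mice, with the mean of each treatment group removed, the members did not vary as a unit. *Ftl1* went most closely with *Cp* (Pearson r = 0.74, Spearman rho = 0.73, and r = 0.62 without the 2 mice farthest from the median of *Cp*) and with *Slc11a1* (r = 0.63, rho = 0.56, r = 0.52 without the 2 mice farthest for *Ftl1*). *Fth1* and *Ftl1* were unrelated at r = -0.02 (rho = -0.05). *Tfrc* and *Slc11a1* had r = -0.42 (rho = -0.30). These are descriptions over mice that share library and dissection differences, and 45 pairs were compared.

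**Figure D4:**
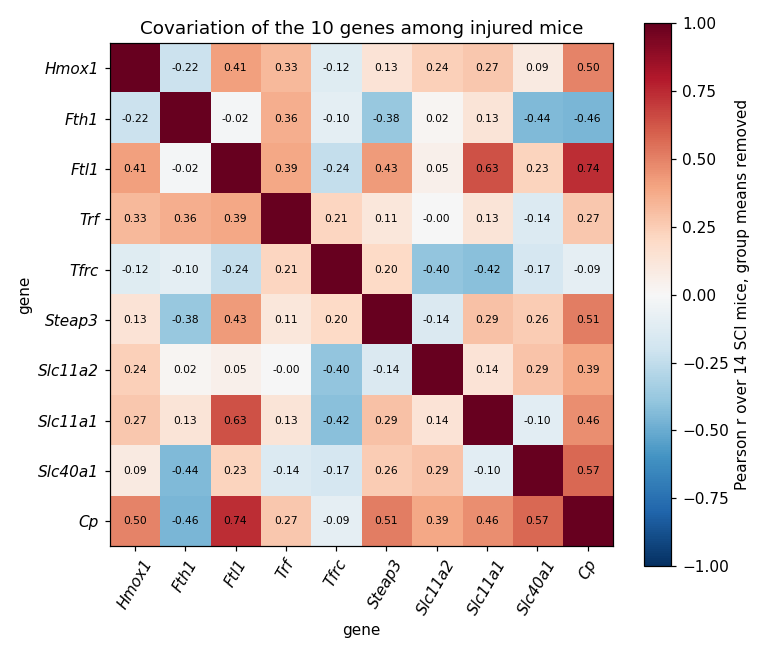
Pearson r between the 10 genes over 14 injured mice, computed on log2 CPM with group means removed, coloured from -1 to 1. The largest value is 0.74 between *Ftl1* and *Cp*, and *Fth1* has negative or small values with *Cp*, *Slc40a1* and *Ftl1*.

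Among 12825 other genes with a mean of at least 100 counts, those most like *Ftl1* were *Ctsz* (r = 0.95, rho = 0.93), *C1qa* (r = 0.92, rho = 0.89) and *Ctss* (r = 0.90, rho = 0.90). *C1qa* encodes a complement subunit, and *Ctsz* and *Ctss* encode lysosomal cathepsins. *C1qa* and *Ctss* are also in the list of microglia or macrophage markers. For *Fth1* they were *Olig1* (r = 0.90, rho = 0.89), *Setd8* (r = 0.90, rho = 0.86) and *Sox10* (r = 0.89, rho = 0.85), of which *Olig1* and *Sox10* encode transcription factors of the oligodendrocyte lineage. For *Slc11a1* the closest was *Il10ra*, the interleukin-10 receptor chain (r = 0.97, rho = 0.93), followed by *Krcc1* and *Daglb* (both r = 0.89).

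For *Cp* the closest were *Vim* (r = 0.98, rho = 0.94), which encodes the intermediate filament vimentin, *Colec12* (r = 0.98, rho = 0.92) and *Slc7a11* (r = 0.97, rho = 0.96), the cystine transporter. Leaving out the 2 mice farthest from the median of *Cp* left r at 0.94 to 0.95 for these 3. The closest gene to *Hmox1* was *Mtr*, methionine synthase (r = 0.95, rho = 0.92), at r = 0.89 without 2 mice. It was followed by *4932418E24Rik* and *Fbxo6* (both r = 0.85). For *Trf* the closest were *Armc1* (r = 0.89), *Nucks1* (r = 0.87) and *Nek7* (r = 0.85), and for *Tfrc* *Hoxa2* (r = 0.86), *Zfp13* (r = 0.84) and *Glp1r* (r = 0.83). For *Steap3* they were *Cog3* (r = 0.84), *5330426P16Rik* (r = 0.83) and *Ror2* (r = 0.81). For *Slc11a2* they were *9530026P05Rik*, *Atrip* and *Lonrf3* (each r = 0.89, falling to 0.69 to 0.73 without 2 mice). For *Slc40a1* they were *Slc25a10* (r = 0.90, and 0.79 without 2 mice), *Gmcl1* (r = 0.85) and *Tgif1* (r = 0.84). Each is the highest of 12825 values over 14 mice, so high values arise by selection and no p is given.

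The wider iron and heme pathway held 71 further genes, of which 67 were tested. Against the controls, 5 were called higher and 13 lower with vehicle, and 11 higher and 18 lower with atorvastatin, beside 19.9% and 24.9% of all genes called higher and 9.91% and 14% called lower. The median log2 fold change was 0.05 and 0.08, beside 0.17 and 0.21 for all genes. The iron-sulfur cluster list had 3 and 4 of 11 called lower and none higher, namely *Bola3*, *Isca1* and *Iscu* in both groups and *Glrx5* in SCI + Atorvastatin mice. Of 16 iron-responsive regulators 2 and 5 were called higher and 3 lower in each. The shares of all genes to read these counts against are those just given. The genes called lower in both groups included *Hpx*, *Hrg*, *Hp* and the regulators *Hamp* and *Tfr2*. The part of the liver RNA of the controls in these counts was not tested.

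The genes called higher included transcripts with 0 counts in both controls. A count of 0 in these libraries does not show that a transcript was absent: *Emcn*, an endothelial marker, also had 0 counts in both, while the 8 endothelial markers summed to 225 and 276 CPM there and 170 to 307 CPM in the injured mice. *Scara5*, a ferritin receptor, had 0 counts in both controls and 50 to 940 in the injured mice. Its mean CPM was 51.2-fold in SCI + Vehicle and 105-fold in SCI + Atorvastatin mice of a floor of 3 counts in a control library. *Flvcr2*, a transporter listed under its older symbol *Mfsd7c*, also had 0 counts in both and was 25.7-fold and 24.0-fold of that floor. The floor allows for counting error only, so these folds do not bound the change. Both genes were at 0 TPM in the controls and passed the filter of 1 TPM only through the injured mice. This favours a call of higher, so their calls add no support. *Lcn2*, lipocalin 2, which binds iron-loaded siderophores, had 0 and 35 counts in the controls and 240 or more in every injured mouse. *Nfe2l2*, which encodes the transcription factor NRF2, an activator of *Hmox1* and the ferritin genes, rose by a log2 fold change of 1.10 (SE 0.21) in SCI + Vehicle and 1.20 (SE 0.20) in SCI + Atorvastatin mice. *Hfe*, the hemochromatosis gene (1.95, SE 0.44), and *Flvcr1*, listed as *Mfsd7b* (1.13, SE 0.26), were called in SCI + Atorvastatin mice. *Neo1*, a partner of hemojuvelin, was called in both groups (0.55 and 0.60), but in neither without Uninjured Control replicate 1 (0.26 and 0.31), and not with vehicle without SCI + Vehicle replicate 6 (0.53, edgeR adjusted p = 0.0522). It was 0.92 and 0.96 without replicate 2.

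The genes called lower that were named by the smallest p divided into those of liver and others. *Hp* (log2 fold changes of -3.41 and -2.85) and *Tfr2* (-2.62 and -2.67) were also called lower in both groups. They are named here after their values were seen, and the part of liver RNA in them was not tested. *Hpx*, *Hamp* and *Hrg* encode the plasma protein hemopexin, the iron hormone hepcidin and histidine-rich glycoprotein, all made in liver, and had 2543 and 1224, 922 and 182, and 1034 and 504 counts in the controls. In the injured mice they had at most 24, 13 and 31 counts. All 15 liver markers were also called lower in both comparisons, and the part of liver RNA in these 3 genes was not tested. Others also fell. *Urod*, an enzyme of heme synthesis, changed by -0.85 (SE 0.16) and -0.94 (SE 0.12). *Epas1*, the hypoxia-inducible factor HIF-2α, changed by -0.82 (SE 0.12) and -0.87 (SE 0.12), and *Bola3*, of iron-sulfur cluster assembly, by -0.98 (SE 0.21) and -1.05 (SE 0.14). With vehicle, *Urod* and *Bola3* were not called by limma on log2(TPM + 1) (adjusted p = 0.0712 and 0.0533). By TPM, *Bola3* in SCI + Vehicle replicate 7 (329) exceeded both controls (318 and 326). *Urod* in Uninjured Control replicate 1 (90.9 TPM) lay within the SCI + Vehicle range (54.1 to 94.8 TPM). *Hmox2*, the constitutive heme oxygenase, named here after its values were seen, changed by -0.71 (SE 0.18, edgeR adjusted p = 0.0150) and -0.87 (SE 0.15, adjusted p = 0.00139), against 1.14 and 1.44 for *Hmox1*. It was -0.36, not called, and -0.52, called, without Uninjured Control replicate 1.

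Between the treatments none of the 67 was called in edgeR, and 6 had an unadjusted p below 0.05, a share near the 7.03% of all genes. *Bmp6*, the signal that induces hepcidin, was higher with atorvastatin by 0.63 (SE 0.17, edgeR adjusted p = 0.680), *Scara5* by 1.03 (SE 0.37) and *Flvcr1* by 0.35 (SE 0.13). *Scara5* was at 27.9 TPM in SCI + Atorvastatin replicate 7 and at 5.08 to 12.1 TPM in the other 6 mice of its group, and without that mouse the difference was 0.63, no longer at an unadjusted p below 0.05. *Ciao1* (-0.21, SE 0.08), *Cisd2* (-0.28, SE 0.11) and *Glrx5* (-0.35, SE 0.14), of iron-sulfur proteins or their assembly, were lower. *Bmp6* passed the limit of p below 0.001 with DESeq2 (adjusted p = 0.272) and in 3 other alternatives of 23.

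**Figure D5:**
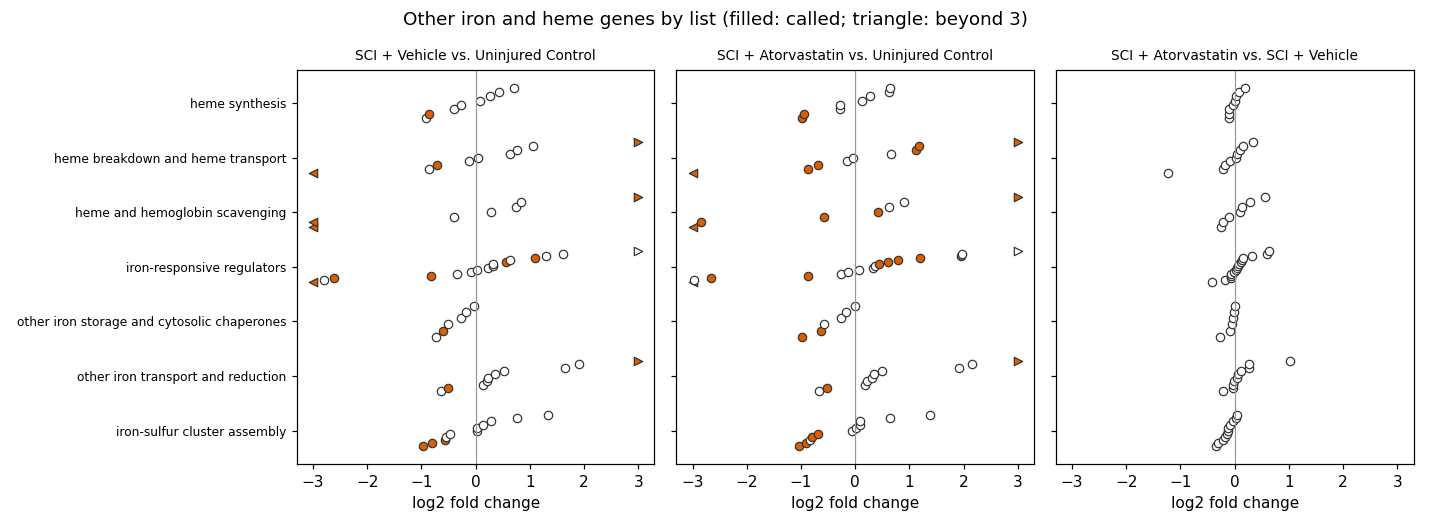
log2 fold change of the 67 other iron and heme genes by list (rows) in the 3 comparisons, sorted within a list, where filled points are called genes and triangles lie beyond 3 in either direction. Calls fall on both sides of 0 against the controls, and none is made between the treatments.

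Red cell RNA could be read only in part. The hemoglobin genes *Hba-a1*, *Hba-a2*, *Hbb-bs* and *Hbb-bt* had 0 counts in all 16 libraries while their TPM summed to 395 and 853 in the controls, 58.7 to 3626 in SCI + Vehicle and 560 to 1879 in SCI + Atorvastatin mice. The counts of these genes therefore hold no information, and by TPM the groups overlapped. The other red cell markers with counts summed to 0 and 21.9 CPM in the controls and 8.17 to 103 CPM in the injured mice. SCI + Vehicle replicate 2, with the largest sum, was also the mouse with the highest *Hmox1* by TPM, and its part was not tested. By CPM, SCI + Atorvastatin replicate 3 had more *Hmox1* than that mouse (29.7 against 28.8).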

How the data were processed

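Bulk RNA-seq of spinal cord from 16 mice was analysed. Per the labels and the submitters' processing notes, Trimmomatic 0.38, STAR 2.5.4b and RSEM 1.3.1 were used on mm10. The authors deposited whole-number counts and TPM per gene symbol. How the counts were made from the alignments is not given in the sources used here, and the TPM deposited were normalized by the authors for length and depth. Groups came from the labels.

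The test for each pair of groups was edgeR's quasi-likelihood fit with TMM scaling (edgeR 4.0.16, R 4.3.3), tested on simulated data, over genes whose mean passed 1 TPM in any group. The study itself used DESeq2. Benjamini-Hochberg adjustment ran over all 16091 genes. DESeq2 1.42.0, limma 3.58.1 and leaving out each mouse were alternatives. A count of 0 allows 3 counts, 0.117 to 0.202 CPM, for counting error only. Ratios were compared by exact permutation (scipy 1.17.1). The members and lists were chosen with earlier results of these data known. All members are named. Of other pathway genes up to 6 per direction with the smallest p were named against the controls and up to 3 between treatments, and the 3 closest genes per member were compared by Pearson r.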

Additional observations from a re-analysis of the deposited data

Results flagged for a closer look

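The *Fth1* to *Ftl1* ratio of SCI + Atorvastatin replicate 1 was 6.47, far from the other 6 mice of its group, which lay between 4.37 and 5.28. Its gap to the nearest of them was 0.569 of the range of the group, just past Dixon's 95% limit for 7 values. Of 24 groups of 7 values examined (TPM of the 10 genes and the ratios), this was the only one past the limit, and chance passes about 1 in 20.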

How the results depend on the processing

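With 2 controls, calls against them depended on the setting. Members called in SCI + Vehicle vs. Uninjured Control went from 2 (29.8% of all genes) to 4 (40.9%) with all 3 groups in 1 fit. They went to 0 (0.957%) with voom and group quality weights. Leaving out any SCI + Vehicle mouse left 2 called (23.9% to 29.9% of all genes). In SCI + Atorvastatin vs. Uninjured Control they went from 4 (38.9%) to 0 (1.16%) with voom and to 5 (44.8%) with DESeq2. Leaving out any SCI + Atorvastatin mouse gave 2 or 3 (34.7% to 35.9% of all genes). The members called thus changed along with the share of all genes. With a control left out, the lone control is assumed to vary like the injured mice. All genes called fell to 154 and 186 with voom, from 4789 and 6259, and to 2394 and 3693 with a mean TPM above 1 in every group. The cause was not tested. Between treatments all genes called were 37 with DESeq2, 1 with all 3 groups in 1 fit, 11 with the filter in every group and 10 with voom, from 17, and no member was called in any setting. On log2(TPM + 1) the median of all genes was 0.49 and 0.52, against 0.17 and 0.21 from counts. The lowest counts of a member were 56 (*Steap3*) in an injured mouse and 64 (*Hmox1*) in a control. The spread without each mouse and the ranges by CPM were added after seeing the data.

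The difference in mean log2 *Fth1* to *Ftl1* ratio passed p below 0.05 on counts (-0.35, exact permutation p = 0.0425), and ranged from -0.48 to -0.28 over leaving out a mouse (exact permutation p = 0.0105 to 0.10). It was below that limit without SCI + Atorvastatin replicate 1 (-0.44, exact permutation p = 0.0233), SCI + Vehicle replicate 1 (-0.48, exact permutation p = 0.0105) or SCI + Vehicle replicate 2 (-0.41, exact permutation p = 0.0478). The *Tfrc* to *Fth1* ratio changed sign around 0 on counts (-0.0028) and ranged from -0.062 to 0.079 over leaving out a mouse.

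Signs turned for members not called above. *Steap3* turned to 0.62 and 0.99 for SCI + Vehicle, and to 0.94 and 1.35 for SCI + Atorvastatin mice, on log2(TPM + 1) and log2(TPM + 0.1). It turned to 0.26 with the replicate block in the latter. Over leaving out a mouse it ranged from -0.88 to 0.11 and from -0.51 to 0.49. *Slc40a1* turned to 0.26 with the replicate block in SCI + Vehicle vs. Uninjured Control and ranged from -0.25 to 0.20, and *Slc11a2* in SCI + Atorvastatin mice ranged from -0.050 to 0.51. *Trf* between treatments turned to -0.0022 with DESeq2 and with its size factors, -0.0049 with the filter in every group, -0.0033 with voom and -0.0031 with the replicate block, and ranged from -0.042 to 0.025.

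Replicate numbers did not pair the mice: correlations of same-numbered mice ran from -0.19 to 0.11, and 0 of 7 correlated best with its own number. With the replicate block, 2, 3 and 0 members were called in the 3 comparisons, beside 29.8%, 33.6% and 0.0497% of all genes. The exact permutation (sign-flip) p of the ratios was 0.141 and 0.969.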
